A study of Mus musculus with 36 samples.

Results

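The 36 genes described here encode chemokines and their receptors: 27 ligands and 9 receptors. They were chosen by symbol and were all found among the 30284 genes to which transcripts were summed. Chemokines are small secreted proteins that steer the movement of leukocytes along concentration gradients by binding receptors that signal through G proteins. In bone they guide the monocytes that become osteoclasts and the blood cells held in marrow niches. CC ligands such as Ccl2 and Ccl3 mainly attract monocytes and macrophages, CXC ligands of the Cxcl1 and Cxcl2 kind mainly attract neutrophils through Cxcr2, and Cxcl12 acts through Cxcr4.

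The study measured RNA in cultured cells of wild-type control mice (WT) and Mir324-null mice (null), which lack a microRNA gene, and the mice were 20 weeks old. Bone marrow macrophages (BMM) were obtained from flushed marrow by growing cells for 3 days in M-CSF, a macrophage growth factor, at 100 ng/mL and then kept for 5 days with M-CSF at 30 ng/mL. Osteoclast cultures (OC) started from the same kind of cells and received, over those 5 days, M-CSF at 30 ng/mL together with RANK-L (50 ng/mL), the cytokine that drives osteoclast formation. Osteoblast cultures (OB) grew out of collagenase-treated chips of long bone over about 6 weeks and were then held for 18 days with β-glycerophosphate at 2 mM and L-ascorbic acid at 50 µg/mL. There were 36 libraries, 6 for every group. The labels do not say whether libraries came from separate mice, so p-values measure the spread between these libraries, which may be technical. The null allele is given only as Mir324-null, and the level of the microRNA itself was not analysed here.

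Libraries held 13987049 to 26105127 estimated counts. Levels of single genes are given as CPM, read counts scaled to a common library size (TMM), and levels of different genes are compared as TPM, transcript shares that account for transcript length. A gene with at most 3 counts in every library of a group is at the floor of detection there, and a fold against it is a lower bound. Such floors cover counting error only, whereas the SDs and SEs given below include the spread between libraries. Cell identity was checked first, because it differed from the labels in one group. The summed level of 6 osteoclast markers was 22160 to 23990 CPM in WT OC and 135 to 446 CPM in null OC, and Ctsk, the main collagen-degrading protease of osteoclasts, was at 13910 ± 584.6 CPM and 80.3 ± 69.6 CPM (SD, n = 6). The null libraries labelled osteoclasts thus carried little RNA of osteoclast markers, and every comparison with them below is a comparison of RANK-L cultures. Summed over 6 macrophage markers, the level was 7469 to 8337 CPM in WT BMM, 11390 to 12790 CPM in null BMM, 4674 to 5060 CPM in WT OC and 9452 to 12860 CPM in null OC. Adgre1 (F4/80) alone made the sum higher in null BMM (1888 ± 121.6 CPM in WT and 7458 ± 807.2 CPM in null): of the 6 markers, 1 was higher and 4 were lower there, and 5 were higher and 1 lower in null OC. OB cultures also held macrophage markers, at 2577 to 2990 CPM in WT and 1994 to 2270 CPM in null, and osteoclast markers at 3126 to 3933 CPM and 3535 to 5145 CPM. Summed over 6 osteoblast markers, the level was 9.86 to 24.6 CPM in WT BMM and 38.9 to 108 CPM in null BMM. It was 12.5 to 14.4 CPM in WT OC and 48.3 to 224 CPM in null OC. Col1a1 was higher in both null cultures and Runx2 only in null BMM, and the other 4 were filtered out. Their part in the results below was not tested. In such bulk samples, fewer cells of a type and less RNA per cell cannot be told apart.

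Per length, the leading chemokine differed between the cultures. In WT BMM it was Ccl2, which recruits monocytes through Ccr2, with a median of 820.3 TPM (619.8 to 972.4), followed by Pf4 at 798.5 TPM (588.3 to 903.8). Pf4 is platelet factor 4, a heparin-binding CXC ligand best known from platelet granules. In WT OC the leading member was Ccl9, a CC ligand of the receptor Ccr1, with a median of 744 TPM (653 to 783), and Ccr1 itself came in the third place with 324 TPM (316 to 339.8). Pf4 led in both null myeloid cultures, with a median of 4037 TPM in null BMM (3336 to 4767) and 3466 TPM in null OC (3110 to 3736). Ccl7, a monocyte attractant like Ccl2, led in OB cultures of both genotypes, with medians of 452.6 TPM in WT (397.7 to 490.6) and 312 TPM in null (208.8 to 499.4). Pf4 was next at 441.2 TPM (362.1 to 538.3) and 279.7 TPM (226.8 to 356.1), and these ranges overlap those of Ccl7, as do the ranges of Ccl2 and Pf4 in WT BMM. Of the 36 members, 31 had the same group of highest level in CPM and in TPM.

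**Figure D1:**
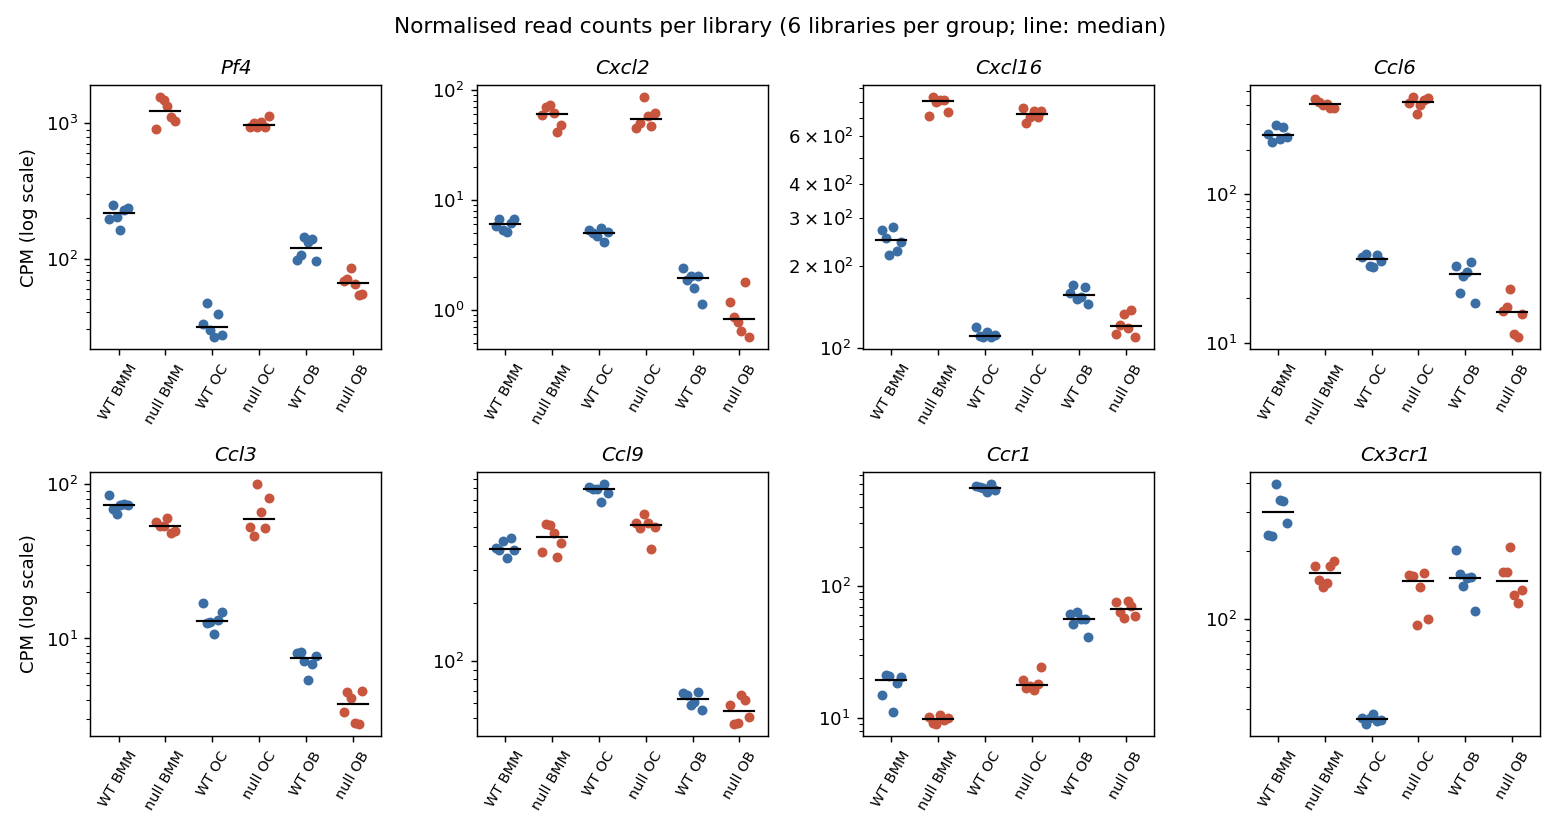
Normalised read counts (CPM, log scale) of 8 members in every library, with 6 libraries per group, WT in blue and null in red; the line is the group median. Pf4, Cxcl2 and Cxcl16 stand higher in both null myeloid cultures than in all WT groups shown, whereas Ccr1 stands highest in WT OC, where its lowest library had 520.7 CPM.

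Genotype was compared first in macrophages. In null against WT BMM, 13 members were higher, 9 were lower, 6 did not pass the test and 8 were filtered out as too low. Of all 11935 genes tested, 27.0% were higher and 25.3% were lower, so many genes besides the chemokines differed. The median log2 difference was 0.36 over the 28 members tested and 0.02 over all genes. In null against WT OC, 20 members were higher, 5 were lower, 3 did not pass and 8 were filtered out, against 32.4% higher and 33.1% lower among 12129 genes. There the median was 2.30 over the members tested and -0.03 over all genes. All p-values given are from edgeR's quasi-likelihood test, adjusted over all genes of the comparison, with a threshold of 0.05.

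The 6 CXC members that lie together on chromosome 5 were higher in both null myeloid cultures, most of them many-fold. Cxcl5, Ppbp, Pf4, Cxcl3, Cxcl1 and Cxcl2 lie within 146.6 kb (GRCm38, chr5:90759360-90905938), and each of the 6 was higher in null than in WT in both BMM and OC, with no overlap between libraries. Of all genes tested, 27.0% were higher in null BMM and 32.4% in null OC. The shares of genes higher in both, or without overlap, were not determined. Promoter windows from RefSeq (GRCm38.p6), 250 bases before to 50 after the start of the gene, are shown for the 5 of these genes that have an entry, because these members moved together while the windows differ. Capitals mark matches to a kappaB consensus, the element bound by NF-kappaB factors, and to the TATA box letters TATAAA, both searched on both strands. The windows are chr5:90890995-90891294 for Cxcl1, chr5:90903649-90903948 for Cxcl2, chr5:90785851-90786150 for Cxcl3, chr5:90768268-90768567 for Ppbp and chr5:90772185-90772484 for Pf4, all on the plus strand.
Cxcl1: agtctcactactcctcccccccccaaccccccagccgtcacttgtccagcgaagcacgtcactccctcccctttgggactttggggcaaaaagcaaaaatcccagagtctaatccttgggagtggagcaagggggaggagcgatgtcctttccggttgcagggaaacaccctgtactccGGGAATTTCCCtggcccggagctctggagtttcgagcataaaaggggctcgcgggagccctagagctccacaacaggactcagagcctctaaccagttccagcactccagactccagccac
Cxcl2: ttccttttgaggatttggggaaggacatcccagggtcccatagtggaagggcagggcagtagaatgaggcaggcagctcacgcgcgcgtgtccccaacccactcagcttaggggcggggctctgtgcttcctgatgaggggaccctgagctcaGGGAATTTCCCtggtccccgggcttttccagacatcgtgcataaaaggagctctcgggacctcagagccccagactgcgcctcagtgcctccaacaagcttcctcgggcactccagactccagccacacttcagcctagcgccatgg
Cxcl3: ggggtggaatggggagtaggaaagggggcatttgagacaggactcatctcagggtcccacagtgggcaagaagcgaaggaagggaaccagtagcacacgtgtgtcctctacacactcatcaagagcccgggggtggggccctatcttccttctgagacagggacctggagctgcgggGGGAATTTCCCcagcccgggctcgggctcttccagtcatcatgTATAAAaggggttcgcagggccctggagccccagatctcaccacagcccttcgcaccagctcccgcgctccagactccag
Ppbp: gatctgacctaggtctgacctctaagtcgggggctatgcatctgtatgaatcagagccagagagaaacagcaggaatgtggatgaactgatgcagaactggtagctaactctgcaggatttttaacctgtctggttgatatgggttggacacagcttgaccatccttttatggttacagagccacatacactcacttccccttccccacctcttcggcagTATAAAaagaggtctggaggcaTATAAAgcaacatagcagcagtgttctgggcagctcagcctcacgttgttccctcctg
Pf4: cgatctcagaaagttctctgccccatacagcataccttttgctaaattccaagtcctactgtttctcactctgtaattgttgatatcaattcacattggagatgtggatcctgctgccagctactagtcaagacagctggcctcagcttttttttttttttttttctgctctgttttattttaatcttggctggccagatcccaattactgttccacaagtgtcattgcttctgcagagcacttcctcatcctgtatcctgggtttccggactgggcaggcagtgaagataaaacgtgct
The same run of 11 bases, GGGAATTTCCC, stood 71 bases before the start in Cxcl1, 97 bases before it in Cxcl2 and 73 bases before it in Cxcl3, and holds the match on either strand. Cxcl3 also had TATAAA 30 bases before the start, and Ppbp had it 30 and 8 bases before. Neither set of letters occurs in the Pf4 window. The 27 members with an entry had 30 windows, of which 8 held the kappaB consensus, and 8.46% of 32851 mouse promoter windows did. For TATAAA it was 11 of 30 windows and 13.6%. These are matches of letters and not measured binding sites.

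Pf4 had 161.9, 216 and 248 CPM in WT BMM (lowest, median and highest library) and 917, 1230 and 1570 CPM in null BMM. Every null library was higher than every WT library, and the log2 difference was 2.56 ± 0.14 (SE, adjusted p = 7.81e-10). In OC the WT libraries had 26.2, 31.2 and 47.0 CPM and the null libraries 936, 972.5 and 1141 CPM. This gap was wider, at 4.90 ± 0.14 (adjusted p = 4.97e-14), with Pf4 lower in WT OC than in WT BMM and both null cultures high. Itga2b and Gp9, which mark megakaryocytes, the cells best known for Pf4 and Ppbp, summed to 0.266 to 0.734 CPM in null BMM and 0.0799 to 0.563 CPM in null OC. In WT they summed to 0.113 to 0.400 CPM in BMM and 0 to 0.278 CPM in OC. The medians were higher in null (0.424 against 0.146 CPM in BMM, 0.282 against 0.180 CPM in OC), with overlap. Both genes were filtered out as too low in these comparisons, and their part in the Pf4 and Ppbp results was not tested.

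Ppbp, the precursor of the neutrophil-attracting ligand NAP-2, had 0.229, 0.356 and 0.571 CPM in WT BMM and 12.5, 15 and 18.4 CPM in null BMM. In OC it had 0.0485, 0.135 and 0.199 CPM in WT and 15.7, 17.7 and 21.0 CPM in null. The WT libraries held 1 to 12 counts of Ppbp, so the difference (5.32 ± 0.19 in BMM and 7.11 ± 0.22 in OC, adjusted p = 2.69e-12 and 5.18e-14) is set by a few counts on the WT side. Cxcl3, a Cxcr2 ligand, had 0 to 0.270 CPM in WT BMM and 6.91, 10.1 and 12.9 CPM in null BMM (6.54 ± 0.34, adjusted p = 1.89e-10). In WT OC it was at the floor, and null OC had 9.88, 14 and 16.7 CPM, at least 81.3-fold higher. No library of either null culture came near the WT range of these genes.

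Cxcl2, the macrophage inflammatory protein that draws neutrophils, had 5.11, 5.99 and 6.75 CPM in WT BMM and 41.6, 60.2 and 73.4 CPM in null BMM. The groups did not overlap (3.30 ± 0.14, adjusted p = 1.81e-11). WT OC was close to WT BMM at 4.11, 5.05 and 5.51 CPM, and null OC was close to null BMM at 45.3, 54.0 and 86.2 CPM (3.56 ± 0.16, adjusted p = 5.17e-12). Cxcl5, another Cxcr2 ligand, was at 0 to 0.286 CPM in WT BMM and 2.87 to 3.87 CPM in null BMM, and at 0.257 to 0.578 CPM in WT OC and 2.55 to 5.33 CPM in null OC (4.27 ± 0.36 and 3.38 ± 0.29). Cxcl1, the close relative of Cxcl2, differed by 3.36 ± 0.23 in BMM and 3.18 ± 0.31 in OC on the log2 scale, from means under 1 CPM in both WT groups. Cxcl1, Cxcl2 and Cxcl3 are near relatives in sequence, so the split of reads among them by the authors' quantification is uncertain. Their receptor Cxcr2 did not move with them: it had means of 3.21 ± 0.644 CPM in WT BMM against 2.94 ± 0.745 CPM in null BMM (adjusted p = 0.641), and it was lower in null OC than in WT OC (-0.63 ± 0.18, adjusted p = 0.00477). Among neutrophil markers other than Cxcr2, Elane, Ltf and Retnlg had no count in any null BMM or null OC library, and the 8 in the list summed to 6.31 to 17.3 CPM and 5.75 to 8.29 CPM there, against at most 0.349 CPM in WT BMM and 0.316 CPM in WT OC. S100a8, which macrophages can also make, gave most of this sum, with 10.8 ± 3.83 CPM in null BMM, and its part in the Cxcl results was not tested.

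Cxcl16, a membrane-bound chemokine that also acts as a scavenger receptor, lies 441.9 kb from the Mir324 gene on chromosome 11 (Cxcl16 at chr11:70453983-70459984, Mir324 at chr11:70012043-70012131, GRCm38). It had 219.5, 249 and 278 CPM in WT BMM and 712, 806 and 835 CPM in null BMM. In OC it had 109.8, 111 and 119.8 CPM in WT and 672, 723 and 762 CPM in null. The genotypes were far apart in both cultures, by 1.66 ± 0.07 (adjusted p = 1.56e-11) and 2.68 ± 0.05 (adjusted p = 1.42e-16). Cxcl16 overlaps Zmynd15 on the other strand, and whether strand was used in counting is not given in the sources used here, so reads of the pair may be mixed. The other 11 members on chromosome 11 lie 12023.4 to 29132.1 kb from Mir324.

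**Figure D2:**
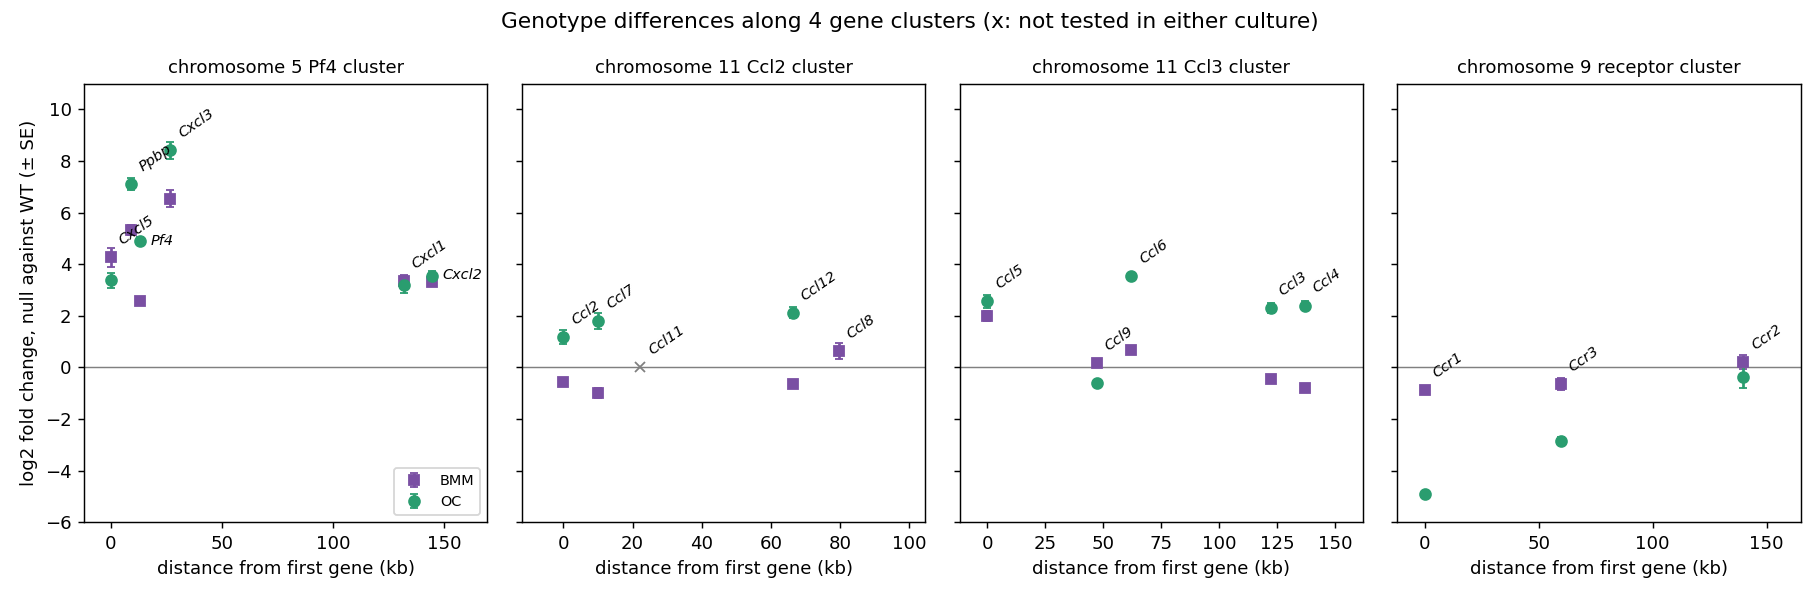
Log2 fold change of null against WT (± SE) for members of 4 gene clusters by distance from the first gene in kb, in BMM (squares) and OC (circles). All 6 chromosome 5 genes lie above 0 in both cultures, 5 of the chromosome 11 CC ligands lie below 0 in BMM and above it in OC, and Ccr1 and Ccr3 lie below 0 in both; the OC value of Cxcl3 is fitted against a group at the floor.

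The CC ligands formed a different pattern. Monocyte attractants of the Ccl2 cluster on chromosome 11 (Ccl2, Ccl7, Ccl11, Ccl12 and Ccl8, within 81.2 kb) differed in direction between the cultures: 3 of the 5 (Ccl2, Ccl7 and Ccl12) were lower in null BMM and higher in null OC. Among all genes tested, 25.3% were lower in null BMM and 32.4% higher in null OC, and the share with both was not determined. Ccl2 had 283, 361 and 417 CPM in WT BMM and 176.5, 215.5 and 336 CPM in null BMM, and the ranges overlapped (-0.56 ± 0.16, adjusted p = 0.00819). In OC it had 174, 213 and 252 CPM in WT and 239.6, 400.3 and 842 CPM in null, again with overlap (1.18 ± 0.27, adjusted p = 0.0017). The null OC libraries were spread widely, so the mean of 485 ± 231 CPM describes no single library well. Ccl7 behaved in the same way, with -0.99 ± 0.20 in BMM and 1.80 ± 0.31 in OC (adjusted p = 0.000899 and 0.00022), and null OC ranged from 147 to 652 CPM. Ccl12, a Ccr2 ligand of the mouse, had 16.8 to 25.2 CPM in WT BMM, 12.5 to 15.3 CPM in null BMM, 4.12 to 7.61 CPM in WT OC and 14.3 to 36.7 CPM in null OC, with no overlap of genotypes in either culture (-0.63 ± 0.11 and 2.12 ± 0.21). Ccl8 had at most 1.40 CPM in any myeloid library, and Ccl11 had at most 2 counts in any of the 36 libraries. Ccl2 overlaps Gm17268 on the other strand, which leaves its count uncertain in the same way as that of Cxcl16.

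The Ccl3 cluster of chromosome 11 holds several ligands of Ccr1 (Ccl5, Ccl9, Ccl6, Ccl3 and Ccl4, within 138.9 kb), and its members split. Ccl3 had 63.7, 72.4 and 84.8 CPM in WT BMM and 47.8, 53.5 and 60 CPM in null BMM (-0.43 ± 0.08, adjusted p = 0.000217). In OC the order of the genotypes was turned, with 10.7, 13.1 and 16.9 CPM in WT and 46.0, 59.2 and 99.9 CPM in null (2.30 ± 0.18, adjusted p = 1.46e-08). Ccl4 went the same way as its neighbour, by -0.80 ± 0.06 in BMM and 2.40 ± 0.18 in OC. Ccl6, a macrophage CC ligand, had 227, 249 and 291 CPM in WT BMM and 380.4, 404 and 441 CPM in null BMM (0.67 ± 0.07, adjusted p = 1.09e-06). In OC, WT fell to 32.3, 36.6 and 39.4 CPM while null stood at 346, 422 and 453 CPM (3.53 ± 0.08, adjusted p = 1.2e-15). Ccl5, the T cell and monocyte attractant RANTES, was higher in null in both cultures, with 1.71 to 3.67 CPM against 7.61 to 13.7 CPM in BMM and 0.557 to 1.95 CPM against 6.25 to 9.51 CPM in OC (1.99 ± 0.19 and 2.56 ± 0.24). Ccl9 was the exception: it had 345 to 442 CPM in WT BMM and 349 to 519 CPM in null BMM (adjusted p = 0.163), and it was lower in null OC, where 385 to 588 CPM stood below the 677 to 847 CPM of WT OC (-0.61 ± 0.08, adjusted p = 5.48e-06).

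The ligands Cxcl14 and Cx3cl1 lie outside these clusters. Cxcl14, an epithelial and stromal chemokine, was lower in null BMM (77.7 ± 14.6 CPM in WT and 57.8 ± 7.06 CPM in null, n = 6 each) and higher in null OC (14.2 ± 0.820 CPM and 69.0 ± 16.5 CPM). The log2 differences were -0.42 ± 0.12 and 2.29 ± 0.13, with adjusted p = 0.00761 and 1.37e-10. Cx3cl1, or fractalkine, the ligand of Cx3cr1, was low in myeloid cultures, at 0.378 to 0.872 CPM in WT BMM and 0.489 to 2.09 CPM in null BMM. It passed the test in BMM (1.13 ± 0.34, adjusted p = 0.0111) but not with limma-voom and quality weights (0.80, adjusted p = 0.0658), and it was higher in null OC (2.64 ± 0.37).

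Among the receptors tested, Ccr1 had the largest genotype difference in OC. It binds Ccl3, Ccl5 and Ccl9 and is carried by osteoclast precursors and osteoclasts. Its promoter window (RefSeq, GRCm38.p6, chr9:123968643-123968942, minus strand) is shown because Ccr1 rose with RANK-L in WT more than any other member measured above the floor in both cultures, and capitals again mark the kappaB consensus.
Ccr1: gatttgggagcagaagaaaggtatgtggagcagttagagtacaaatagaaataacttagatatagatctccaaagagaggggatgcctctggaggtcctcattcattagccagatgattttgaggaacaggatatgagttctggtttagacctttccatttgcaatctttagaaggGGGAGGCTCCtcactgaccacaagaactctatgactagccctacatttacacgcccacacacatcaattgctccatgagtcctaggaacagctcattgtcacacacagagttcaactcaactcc
The match, GGGAGGCTCC, begins 74 bases before the start and differs from that of the Cxcl genes. Ccr1 had 11.1, 19.4 and 21.1 CPM in WT BMM and 8.98, 9.84 and 10.5 CPM in null BMM. The null libraries were lower without overlap (-0.86 ± 0.14, adjusted p = 9.09e-05). In WT OC it had 520.7, 563 and 602 CPM, and in null OC 16.3, 17.9 and 24.2 CPM. This was a difference of -4.90 ± 0.09 (adjusted p = 1.4e-16), and all 6 osteoclast markers were lower in null OC too; their part in the Ccr1 result was not tested.

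Ccr3, the eotaxin receptor, lies near Ccr1 in the same cluster on chromosome 9 and followed it at a lower level. WT OC had 32.9, 33.5 and 39.9 CPM and null OC 3.51, 4.47 and 7.95 CPM, with no overlap (-2.85 ± 0.15, adjusted p = 5.81e-11). In BMM the difference of -0.64 ± 0.24 (adjusted p = 0.0308) rested on single libraries: without WT BMM library 3 or 5, or without null BMM library 4 or 5, the adjusted p was between 0.0571 and 0.0767. Ccr2, the Ccl2 receptor and the third gene of that cluster, had 0.075 to 1.62 CPM over the myeloid libraries and passed in neither culture (adjusted p = 0.542 and 0.449).

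Cx3cr1, the fractalkine receptor of resident macrophages, had 235, 300.4 and 399 CPM in WT BMM and 139, 161 and 181 CPM in null BMM. Null was lower without overlap (-0.91 ± 0.13, adjusted p = 2.53e-05). In OC the direction was opposite, with 34.3, 36.01 and 37.9 CPM in WT and 93.8, 147.5 and 159.8 CPM in null (1.91 ± 0.12, adjusted p = 6.61e-10). The annotated span of Cx3cr1 overlaps 9 other genes, so its reads may not all be its own. Ccrl2, an atypical receptor that presents chemerin without signalling, had 8.74 to 15.2 CPM in WT BMM and 10.5 to 13.3 CPM in null BMM (adjusted p = 0.652). In OC it had 0.678, 1.43 and 1.79 CPM in WT and 6.75, 9.48 and 12.7 CPM in null (2.90 ± 0.23, adjusted p = 1e-08). Cxcr4, the receptor that holds cells near Cxcl12, had 1.58, 6.72 and 9.99 CPM in WT BMM and 7.67, 12.9 and 20.6 CPM in null BMM. The ranges overlapped and the result was marginal (1.08 ± 0.43, adjusted p = 0.0485); it did not pass under 4 of the alternatives or without any one of WT BMM libraries 1, 2 and 3 and null BMM libraries 2, 3 and 4 (adjusted p up to 0.107 then). In OC the groups were apart, at 1.08 to 1.89 CPM and 5.75 to 9.50 CPM (2.26 ± 0.20, adjusted p = 4.08e-08).

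**Figure D3:**
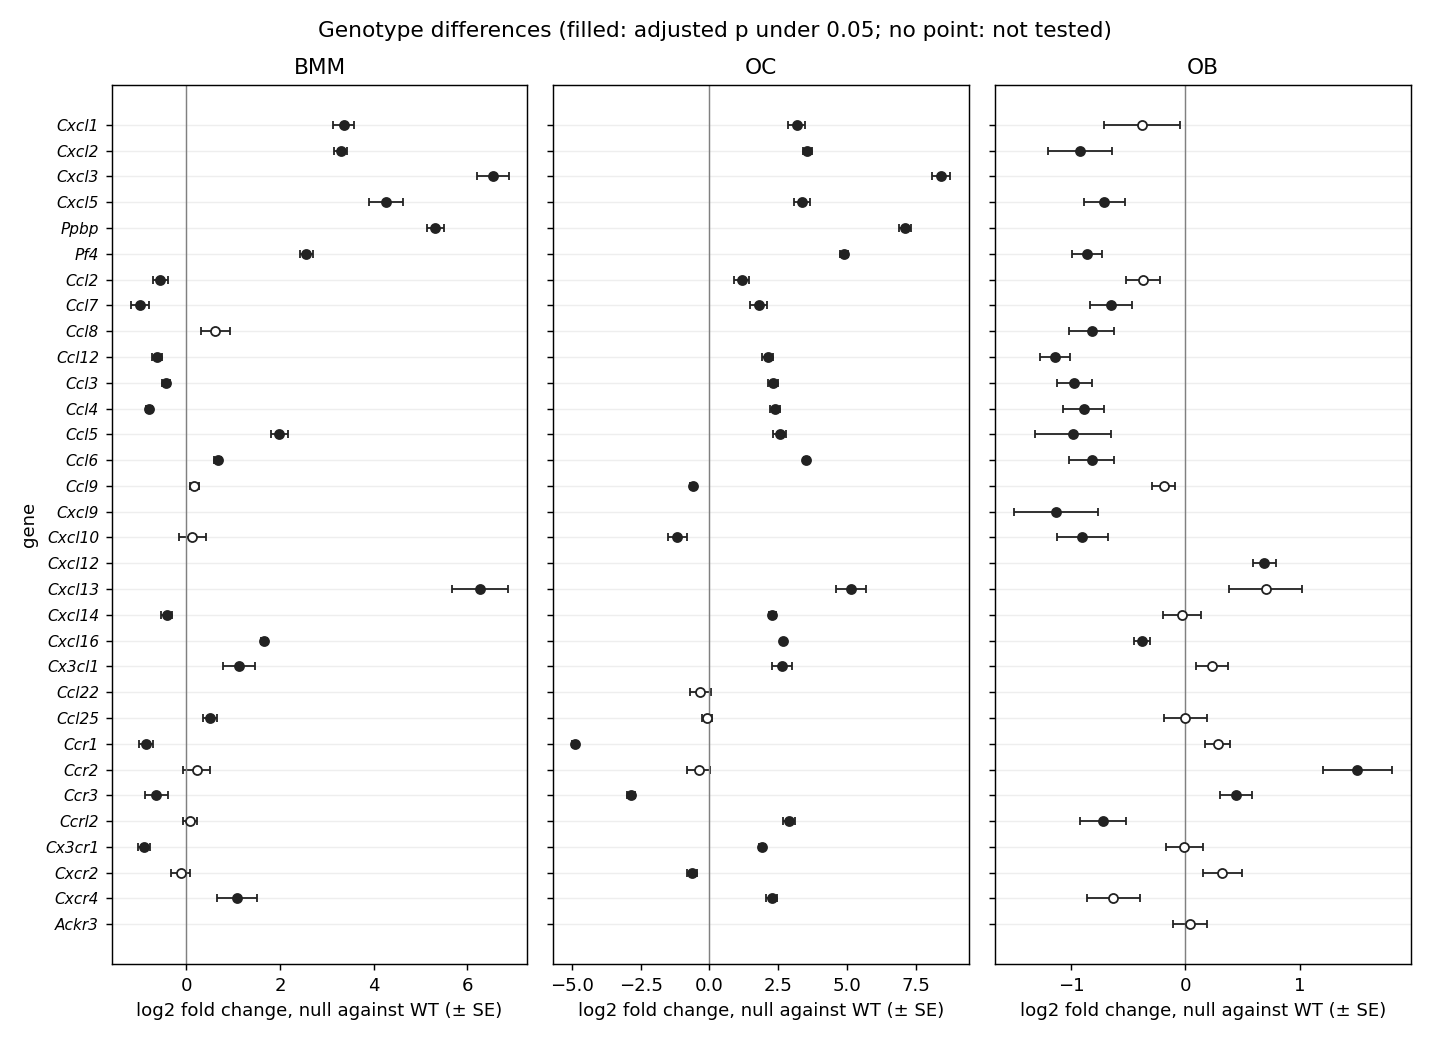
Log2 fold change of null against WT (± SE) for each member tested in BMM, OC and OB, filled where the adjusted p was under 0.05; the scales differ between panels. Most filled points lie above 0 in OC and below 0 in OB. Values of Cxcl3 in OC and of Cxcl13 in BMM and OC are fitted against WT groups at the floor and depend on the prior count.

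RANK-L turns macrophages into osteoclasts, and the members' response to it was compared within each genotype; these fits share libraries with the comparisons above. In WT, 7 members were higher and 15 were lower in OC than in BMM, 8 did not pass and 6 were filtered out. Of 12671 genes tested, 30.4% were higher and 30.1% were lower, and the median was -0.92 over the members tested. In null, 5 members were higher and 25 did not pass, against 6.77% of genes higher and 6.08% lower, with a median of 0.16. No member was lower in null by edgeR, and 4 were lower at an unadjusted p under 0.05. DESeq2 also called 0 lower (4 unadjusted), and limma-voom called 0 lower (3 unadjusted). The difference between the responses was tested as an interaction: 15 members had a higher response in null and 6 a lower one, against 25.3% and 26.1% of genes.

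In WT, RANK-L cultures had more RNA of Ccr1 (4.97 ± 0.12, adjusted p = 1.79e-22), Ccr3 (2.31 ± 0.20) and Ccl9 (0.98 ± 0.10), that is of a ligand and receptor pair and a neighbour of that receptor. Ccl22, a ligand of Ccr4, went from the floor in WT BMM to 1.42 to 2.56 CPM in WT OC, at least 11.1-fold higher. The strongest falls in WT were Ccrl2 (-3.17 ± 0.20), Cx3cr1 (-3.07 ± 0.14), Ccl6 (-2.83 ± 0.08), Ccl4 (-2.71 ± 0.14), Pf4 (-2.66 ± 0.14), Cxcl14 (-2.46 ± 0.14) and Ccl3 (-2.43 ± 0.15), each with no overlap between BMM and OC libraries. Cxcl16 fell by 1.15 ± 0.06, Ccl12 by 1.72 ± 0.18, Ccl7 by 1.37 ± 0.28 and Ccl2 by 0.71 ± 0.23 on the same scale. Cxcl2 did not pass (-0.28 ± 0.16, adjusted p = 0.14). The calls of Ccl8 (lower) and Cxcl5 (higher) were each lost on leaving out any of 4 single libraries: WT BMM 2 and 4 and WT OC 4 and 5 for Ccl8 (adjusted p up to 0.0813), and WT BMM 2, 3 and 4 and WT OC 1 for Cxcl5 (up to 0.0887).

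In null, the same addition of RANK-L went with higher Ccl7 (1.43 ± 0.28), Ccl2 (1.04 ± 0.23), Ccl12 (1.04 ± 0.17), Ccr1 (0.94 ± 0.12) and Ccl4 (0.50 ± 0.13). Ccl2, Ccl7, Ccl12 and Ccl4 thus fell in WT and rose in null. For each of these genes the null BMM and null OC libraries overlapped, as with Ccl4 at 54.7 to 65.9 CPM and 61.9 to 134 CPM. Ccr1 rose in both, from 17.8 ± 4.01 to 562 ± 29.3 CPM in WT and from 9.75 ± 0.586 to 18.8 ± 2.88 CPM in null. The interaction was -4.03 ± 0.16 for Ccr1 (adjusted p = 2.41e-17) and -2.19 ± 0.29 for Ccr3, and it was 3.21 ± 0.19 for Ccl4, 2.87 ± 0.11 for Ccl6, 2.84 ± 0.26 for Ccrl2, 2.83 ± 0.19 for Cx3cr1 and 2.35 ± 0.19 for Pf4. For Cxcl2 (0.26 ± 0.21, adjusted p = 0.316) and Cxcl5 (-0.87 ± 0.48, adjusted p = 0.13) no difference of the responses was detected. The interaction of Cxcr4 (1.19 ± 0.50, adjusted p = 0.0494) was lost on leaving out any of 16 of the 24 libraries, with an adjusted p of 0.0533 to 0.0992 then. That of Cxcl3 (1.89 ± 0.76, adjusted p = 0.0404), fitted against WT OC at the floor, was lost without any one of WT BMM libraries 1, 2 and 4 and WT OC libraries 3, 4, 5 and 6 (adjusted p = 0.053 to 0.161). The call of Ccl4 in null was not kept by limma-voom (0.34, adjusted p = 0.0797). Osteoclast markers summed to 87.4 to 125 CPM in WT BMM, 77.7 to 91.0 CPM in null BMM and 135 to 446 CPM in null OC, and what part cell identity has in these responses was not tested.

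In OB cultures the members were first placed relative to macrophages. In WT OB against WT BMM, 15 members were higher, 11 were lower, 6 did not pass and 4 were filtered out, against 41.5% of 14278 genes higher and 35.3% lower. The median was 0.30 over the members tested, 0.12 with the genes at the floor set to their bound, and 0.08 over all genes. Cxcl12, the stromal ligand that retains blood stem cells and lymphocytes in marrow, had 174, 181 and 240.2 CPM in WT OB and was at the floor in WT BMM, at least 1099-fold higher in OB. Its scavenging receptor Ackr3 was likewise at 8.90, 11.7 and 14.3 CPM in WT OB and at the floor in WT BMM, at least 68.0-fold higher. Cx3cl1 (7.19 ± 0.25), Cxcl5 (6.04 ± 0.30) and Ccl8 (4.15 ± 0.29) were also much higher in OB, and Cxcl14 by 0.97 ± 0.14. Ccl3, Ccl4, Ccl6, Ccl9 and Ccl2 were lower in OB, by -3.32, -3.51, -3.21, -2.64 and -2.59. Myeloid chemokines were still present there, beside the macrophage markers given above. The cultures differ in source tissue, medium and time as well as in cell type.

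Null OB differed from WT OB mostly downward: 3 members were higher, 14 were lower, 12 did not pass and 7 were filtered out, against 15.5% of 13614 genes higher and 16.9% lower. The median was -0.38 over the members tested and 0.00 over all genes. Cxcl12 was higher in null, with 253, 312 and 384 CPM against 174, 181 and 240.2 CPM in WT. The libraries did not overlap, and the difference was 0.69 ± 0.10 (adjusted p = 0.000244). Summed osteoblast markers were 44480 to 63720 CPM in WT OB and 79430 to 98310 CPM in null OB. Col1a1 and Ibsp made up nearly all of this sum; Col1a1, Ibsp and Runx2 were higher in null, whereas Sp7 (0.66), Alpl (0.55) and Bglap (-0.43) did not pass, and their part in the Cxcl12 result was not tested. Ccr2 was higher in null as well (1.68 ± 0.794 CPM in WT and 4.88 ± 1.67 CPM in null, 1.5 ± 0.30, adjusted p = 0.00145), and Ccr3 by 0.44 ± 0.14 (adjusted p = 0.0218, or 0.052 without WT OB library 5). Ackr3 and Cx3cl1, mainly found in OB, did not pass (0.04 ± 0.15 and 0.23 ± 0.14, adjusted p = 0.884 and 0.224).

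The 14 members that were lower in null OB included Pf4, Cxcl16 and 7 CC ligands. Pf4 had 96.5, 119.8 and 143.6 CPM in WT and 54.2, 66.5 and 84.6 CPM in null (-0.86 ± 0.13, adjusted p = 0.000298). Ccl12 had 13.96, 16.4 and 19.6 CPM in WT and 5.62, 7.42 and 9.99 CPM in null (-1.14 ± 0.13, adjusted p = 3e-05). The genotypes did not overlap for these or for Ccl3 (-0.97 ± 0.15), Ccl4 (-0.89 ± 0.18), Cxcl5 (-0.71 ± 0.18) and Cxcl16 (-0.38 ± 0.07, from 158 ± 9.84 to 122.5 ± 11.5 CPM). They overlapped for Ccl6 (-0.82 ± 0.20), Ccl7 (-0.65 ± 0.18), Ccl8 (-0.82 ± 0.20), Ccl5 (-0.98 ± 0.33), Cxcl2 (-0.92 ± 0.28), Cxcl9 (-1.13 ± 0.37), Cxcl10 (-0.90 ± 0.22) and Ccrl2 (-0.72 ± 0.20). In the same libraries 5 of 6 macrophage markers were lower in null, for example C1qa with 659 ± 46.1 CPM in WT and 364 ± 49.4 CPM in null, and their part in these results was not tested. When a length and GC trend was removed, the calls of Ccl5 (then -0.58), Ccl7 (-0.33), Ccl8 (-0.43), Cxcl2 (-0.66) and Ccr3 (0.38) were lost. The count of members called went from 17 to 11. The rest of this drop lies among Ccr2, Cxcl9 and Cxcl10, called members under 10 CPM that were not followed singly through the settings. Ccl5 (adjusted p = 0.0368) also lost its call without any one of WT OB libraries 1, 2, 3 and 5 or null OB libraries 1, 2, 3 and 4, with an adjusted p between 0.0523 and 0.081. Cx3cr1 did not pass, with 153 ± 30.3 CPM in WT and 152 ± 33.4 CPM in null (-0.01 ± 0.16, adjusted p = 0.965).

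The genotype difference in OB was then set against that in OC, in one fit of all 36 libraries. It was higher in OB for 6 members and lower for 22, against 27.8% and 27.4% of genes, and 4 did not pass. The median over the members tested was -2.66, and over all genes 0.02. Pf4 differed by -5.75 ± 0.21 (adjusted p = 2.37e-22), since it was higher in null OC and lower in null OB. Cxcl2 (-4.46 ± 0.30), Ccl6 (-4.33 ± 0.19), Cxcl16 (-3.04 ± 0.09) and Ccl3 (-3.25 ± 0.22) had the same form. Ccr1 differed the other way by 5.19 ± 0.16 (adjusted p = 5.21e-25), as it was lower in null OC. In the fit of OB libraries alone, Ccr1 did not pass (0.28 ± 0.11, adjusted p = 0.0566). In the fit of all 36 libraries it passed in OB (0.28, adjusted p = 0.049). It also passed there with RLE scaling, DESeq2, the effective length offset and the replicate block (adjusted p = 0.0325 to 0.045). With the other settings it did not pass. Leaving out any one of WT OB libraries 1 and 3 or null OB libraries 2, 3 and 6 gave a pass (adjusted p = 0.0346 to 0.0486). The contrast of OB with OC uses the same libraries as the OC and OB comparisons and is no further evidence for either. Of 25 members tested in both OC and OB, 11 were higher in null OC and lower in null OB, against 7.82% of the 11808 genes tested in both: Ccl3, Ccl4, Ccl5, Ccl6, Ccl7, Ccl12, Cxcl2, Cxcl5, Cxcl16, Pf4 and Ccrl2.

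The remaining 12 members stayed under a mean of 10 CPM in every group. Cxcl13, the B cell attractant, was at the floor in WT BMM and WT OC and at 0.667 to 1.80 CPM and 0.764 to 2.64 CPM in the null cultures, at least 6.74-fold and 10.2-fold higher. Cxcl10, induced by interferon and a ligand of Cxcr3, was higher in WT OC (2.67 to 7.15 CPM) than in WT BMM (1.05 to 2.49 CPM) and lower in null OC than in WT OC (-1.16 ± 0.36, adjusted p = 0.0101). It overlaps Art3 on the other strand. Cxcl9, its neighbour, reached 1.17 to 3.21 CPM in WT OB and under 1 CPM in all myeloid libraries. Ccl25, a thymic and gut ligand, lay between 1.81 and 6.85 CPM in all 36 libraries and overlaps Elavl1, and it was higher in null BMM by 0.51 ± 0.15 (adjusted p = 0.0105). Ccl17, Ccl24 and Ccr7, genes of dendritic and alternatively activated cells, had at most 16 counts in any library and were filtered out of every genotype comparison.

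Genes that act with the chemokines were described from lists of other family members and of the signalling that follows their receptors. Of 11 other ligands, 1 passed the filter in BMM and in OC and 2 in OB. Among other receptors, Cxcr3, the receptor of Cxcl9 and Cxcl10, was higher in null OC by 2.23 ± 0.14. Of 20 signalling genes, 9 were higher and 7 lower in null BMM, 16 higher and 2 lower in null OC, and 2 higher and 4 lower in null OB, with medians of 0.12, 0.66 and -0.09 beside the values for all genes above. Fgr, a Src-family kinase of myeloid cells, was higher in null BMM by 4.57 ± 0.13, the GTPase Rac2 by 1.27 ± 0.05, and the integrin chain Itgal in null OC by 2.89 ± 0.09. Plcb2, a phospholipase that takes the signal from G proteins, was lower in null OC by -1.64 ± 0.10.

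Of 12 genes that end receptor signalling, 6 were higher and 4 lower in null BMM, 5 higher and 2 lower in null OC, and 1 higher and 5 lower in null OB. Rgs1, which speeds the shut-off of G proteins, had 111 ± 24.7 CPM in WT BMM against 19.1 ± 2.74 CPM in null BMM (-2.54 ± 0.15). The receptor kinase gene Grk3 had 172.5 ± 13.1 CPM in WT OC against 7.19 ± 1.98 CPM in null OC (-4.59 ± 0.15). Arrb2, an arrestin that takes receptors out of the membrane, was higher in null OC by 1.72 ± 0.08. Of 10 genes for chemokine mRNA decay and ligand cleavage, 9 were tested, with 5 higher and 3 lower in null BMM, 6 higher and 2 lower in null OC, and 2 higher in null OB. Zc3h12a, from this list, was higher in null OC by 1.73 ± 0.10 (14.6 ± 1.02 CPM in WT and 48.1 ± 6.63 CPM in null). Zfp36, which binds AU-rich mRNA of cytokines for decay, was lower in null in both myeloid cultures, by -0.69 ± 0.10 and -0.96 ± 0.11. Mmp8, a collagenase that also cuts chemokines, was higher by 3.30 ± 0.07 and 4.29 ± 0.08. Mmp9 had 0.336 ± 0.201 CPM in WT BMM against 186 ± 23.8 CPM in null BMM, but 6862 ± 593 CPM in WT OC against 262 ± 43.6 CPM in null OC, so its direction changed between the cultures. Counts of these lists lie beside backgrounds in which about as many genes were called in each direction, and nothing particular to the lists is read from them.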

How the data were processed

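The data are RNA-seq libraries of cultured mouse bone cells, 36 in 6 groups of 6, with groups and replicate numbers taken from the labels. RNA was extracted with a mirVana kit and made into libraries with a low-input kit from NEB, per the labels' protocols. Per the file headers, each deposited table gives, per transcript, its estimated count and TPM as well as its length and effective length. The submitters' processing notes name kallisto, DESeq2 and GRCh38, although the identifiers are of mouse; versions, annotation and use of strand are not given in the sources used here. The labels name no sequencing batch, so a batch that went with a group cannot be told apart from it.

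Of 88198 transcripts, 86119 (97.6%) were found by identifier in GENCODE M21 (GRCm38), 88.9% of them with an equal length there. The rest, with 0.61% to 0.96% of a library's counts, were left out. The deposited estimated counts and TPM values were summed per gene, giving 30284 genes, and the counts were rounded. TPM values are relative within a library and carry no depth. After filterByExpr and TMM scaling, genes were tested in edgeR 4.0.16 (quasi-likelihood F test, robust) in R 4.3.3, with Benjamini-Hochberg adjustment over all genes tested and a threshold of 0.05. Each genotype comparison used its 12 libraries, the RANK-L comparisons the 24 myeloid libraries, and comparisons with OB all 36. SEs were derived from the F statistic. The procedure was tested on simulated counts. CPM used TMM library sizes over all libraries. Promoter windows are from RefSeq (GRCm38.p6), which had an entry for 27 of the members; Ccl2, Ccl4, Ccl5, Ccl7, Ccl11, Ccl24, Cxcl5, Cxcl16 and Ccr7 had none.

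The members, lists, markers and tests were chosen with earlier results of these data known. Values per library are given for the 24 members with a mean of at least 10 CPM in 1 group, and ranges for the other 12; Cxcl1, Cxcl10, Cxcl13, Cxcr2 and Ccr2 are described at more length as relatives of these. From each list, at most 2 genes per direction and comparison with the smallest p and a mean of at least 10 CPM could be named. The alternatives tried were DESeq2 1.42.0, limma 3.58.1 (voom with quality weights), RLE scaling, testing unfiltered genes or only those averaging 10 counts or more, offsets for effective length or for a lowess trend (span 0.3) on length and GC, the replicate number as a block, one joint fit of the 36 libraries, dropping single libraries, and the deposited TPM. Pairing of samples by replicate number was not detected, which does not show that they were unpaired. The counts of 1 list, that of other receptors, are not reported here.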

Additional observations from a re-analysis of the deposited data

Results flagged for a closer look

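Single libraries that stood apart from the other 5 of their group were looked for among the 24 members with the higher levels, in 136 groups with a count, and 9 were found; chance gives about 1 in 20 groups. In null OB, library 5 had 10.11 CPM of Ccl8 (the others 4.601 to 5.53), library 4 had 0.214 CPM of Cxcl3 (0.0403 to 0.0975) and library 6 had 1.611 CPM of Ccrl2 (3.49 to 4.46). The null OB libraries held only 1 to 4 counts of Cxcl3, so its value rests on a few counts near the floor. Library 1 of null BMM had 15.32 CPM of Ccl12 (12.5 to 13.4), and library 1 of WT OC had 0.5784 CPM of Cxcl5 (0.257 to 0.348). In WT OB, library 5 had 18.74 CPM of Cxcl5 (8.06 to 11.98) and library 2 had 240.2 CPM of Cxcl12 (174 to 196). Library 6 of null OC had both 24.23 CPM of Ccr1 (16.3 to 19.3) and 7.953 CPM of Ccr3 (3.51 to 4.78).

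The response to RANK-L differed between the genotypes for 18 of these members by the interaction test. On the log2 scale, the response in null minus that in WT was 1.75 for Ccl2, 2.79 for Ccl7, 2.76 for Ccl12, 2.74 for Ccl3, 3.21 for Ccl4, 2.87 for Ccl6 and -0.77 for Ccl9. It was 2.35 for Pf4, 1.80 for Ppbp, 1.89 for Cxcl3, 2.72 for Cxcl14, 1.03 for Cxcl16 and 1.52 for Cx3cl1. Among receptors it was -4.03 for Ccr1, -2.19 for Ccr3, 2.84 for Ccrl2, 2.83 for Cx3cr1 and 1.19 for Cxcr4.

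The genotype difference in OB minus that in OC differed from 0 for all 24. It was -1.54 for Ccl2, -3.25 for Ccl3, -3.27 for Ccl4, -3.53 for Ccl5, -4.33 for Ccl6, -2.43 for Ccl7, -2.06 for Ccl8, 0.44 for Ccl9 and -3.24 for Ccl12. For the other ligands it was -2.41 for Cx3cl1, -4.46 for Cxcl2, -9.88 for Cxcl3, -4.07 for Cxcl5, -4.93 for Cxcl12, -2.30 for Cxcl14, -3.04 for Cxcl16, -5.75 for Pf4 and -8.93 for Ppbp. For receptors it was 5.19 for Ccr1, 3.30 for Ccr3, -3.62 for Ccrl2, -1.91 for Cx3cr1, -2.88 for Cxcr4 and 3.37 for Ackr3. The values of Cxcl3, Cxcl12 and Ackr3 are fitted against OC groups at the floor and depend on the prior count. That of Ppbp likewise involves null OB at the floor (1 to 3 counts), with only 1 to 4 counts in WT OC. The value of Ccl9 was 0.21 with an offset for effective length (adjusted p = 0.245), and that of Ackr3 was 1.33 with limma-voom (adjusted p = 0.126).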

How the results depend on the processing

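Over 179 comparisons of single members, 139 passed the test; 122 of these passed under all settings and with each library left out, 14 lost their call in a setting, 9 on leaving out a library, and none of the 139 changed direction. With the length and GC offset, 11 members were called in OB (17 in the report), and 9 for RANK-L in null (5 in the report). The cause was not tested. Counts without 1 library were 21 to 23 in BMM (22 in the report), 25 in OC in every case and 15 to 21 in OB. No pairing of samples by replicate number was detected, which does not show that they were unpaired. With the number as a block, members called were 21 in BMM, 25 in OC, 18 in OB and 6 for RANK-L in null. Cxcr4 in BMM (adjusted p = 0.112), Ccl5 in OB (0.0624) and the interaction of Cxcr4 (0.131) then lost their calls. The interaction of Cx3cl1 was 0.39 with the offset for effective length (adjusted p = 0.586).

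Differences that did not pass and changed sign were Cxcl14 in OB (0.05 with the length and GC offset, -0.09 to 0.10 without 1 library), Cx3cr1 in OB (0.07 with limma-voom, 0.01 with the effective length offset, -0.12 to 0.09), Ackr3 in OB (-0.03 with the length and GC offset, -0.04 to 0.15), Cxcl2 with RANK-L in null (0.18 with that offset, -0.16 to 0.05), Ccr3 with RANK-L in null (-0.06 to 0.22) and Ccrl2 in BMM (-0.01 to 0.16). Of 66 ratios of group means, 61 agreed within the replicate spread between CPM and TPM. None changed direction among members that passed the test in the comparison. Some ratios of members that did not pass did change direction. For example, mean Ccl9 in BMM was 394.1 CPM in WT and 440.3 CPM in null, but 360.8 TPM and 333.6 TPM. Ccrl2 in BMM and Cx3cr1 and Cxcl14 in OB also changed direction. Depth limits genes under 1 CPM, where WT libraries held few counts.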
